A study of Homo sapiens with 2 samples.

Results

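The machinery that brings secreted and membrane proteins into the endoplasmic reticulum (ER) was followed in MDA-MB-453 breast cancer cells with and without inflammatory cytokines. It was taken as 33 named genes in 4 groups: the signal recognition particle (SRP) and its receptor (8 genes), the translocon and its partners (9 genes), the signal peptidase (5 genes) and the oligosaccharyltransferase (11 genes). All 33 were among the 16251 genes listed in the count matrix. The members were listed by name and function, with no threshold on a value, although earlier results of these data were known when the list was made.

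MDA-MB-453 is an established human cell line, given in the labels as triple-negative breast cancer and wild type. Cells in DMEM with serum received vehicle (water) or IL1β and TNFα at 10 ng/ml, and were collected after 24 hours according to both labels and methods. The study's text elsewhere gives a longer treatment. Each condition was 1 culture and 1 library of a 10x Genomics single-cell 3′ kit, so the 2 conditions cannot be told apart from the 2 cultures or libraries. The vehicle library held 2822 cells and 58587996 unique molecular identifiers (UMIs, each standing for 1 captured RNA molecule). The cytokine library held 3163 cells and 69592446 UMIs. The median cell had 20249 UMIs with vehicle and 21508 with cytokines.

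The SRP binds the signal sequence of a protein while the ribosome is still making it and docks at its receptor on the ER membrane. The nascent chain then passes through the SEC61 channel, where the translocon-associated protein (TRAP) complex assists many substrates. The signal peptidase removes the signal sequence, and the oligosaccharyltransferase moves a preassembled sugar tree onto asparagine residues of the entering chain. Cells that secrete much protein, such as plasma cells and glandular epithelium, are known for high levels of these genes.

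The libraries differed in ways that bear on every value. By the deposited phase calls, 36.6% of vehicle cells and 88.5% of cytokine cells were in G1, 45.1% and 10.2% were in S, and 18.3% and 1.26% were in G2 or M. Ribosomal protein genes took 29.5% of UMIs with vehicle and 26.9% with cytokines. Luminal epithelial markers were present (6 of 6 measured, summed level 2624 UMIs per 1000000 (counts per 1000000, CPM) with vehicle and 5757 CPM with cytokines). None of the 5 T, B and NK cell markers was listed, and myeloid and endothelial markers lay at 1.82 CPM or below. Of the fibroblast markers only COL1A1 was listed, at 20.9 CPM and 20.1 CPM. Of the plasma cell markers, MZB1 was at 34.5 CPM and 143 CPM and SDC1 at 71.5 CPM and 29.1 CPM, while JCHAIN and CD38 were not listed. The part of any of these differences in the results was not tested.

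The promoters of the 4 members with the largest ratios are shown here, together with that of SEC62, whose level was not higher with cytokines. Each window runs from 250 bases before to 50 bases after a transcription start in RefSeq (GRCh38.p14), written 5′ to 3′ on the gene's strand. Capitals mark 3 motifs and their reverse complements. The first is the CCAAT box. The second is the ACGTG core. The third is TGACGTG, which reads CACGTCA on the other strand. SSR2 is encoded on the minus strand (window chr1:156020902-156021201) and SSR4 on the plus strand (chrX:153794418-153794717, 1 of its 2 windows). DDOST lies on the minus strand (chr1:20661320-20661619), SEC11C on the plus strand (chr18:59139634-59139933) and SEC62 on the plus strand (chr3:169966557-169966856).
SSR2: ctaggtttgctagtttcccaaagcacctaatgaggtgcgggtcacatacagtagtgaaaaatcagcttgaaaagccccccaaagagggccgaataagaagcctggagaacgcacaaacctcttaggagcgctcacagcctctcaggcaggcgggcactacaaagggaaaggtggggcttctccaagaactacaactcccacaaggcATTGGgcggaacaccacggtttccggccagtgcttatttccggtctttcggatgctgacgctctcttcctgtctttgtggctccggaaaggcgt
SSR4: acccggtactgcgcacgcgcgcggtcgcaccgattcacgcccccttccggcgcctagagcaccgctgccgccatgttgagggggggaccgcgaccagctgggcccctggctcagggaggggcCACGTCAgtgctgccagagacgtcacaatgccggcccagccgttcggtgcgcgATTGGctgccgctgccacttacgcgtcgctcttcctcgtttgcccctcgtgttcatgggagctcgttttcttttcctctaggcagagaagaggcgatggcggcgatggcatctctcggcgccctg
DDOST: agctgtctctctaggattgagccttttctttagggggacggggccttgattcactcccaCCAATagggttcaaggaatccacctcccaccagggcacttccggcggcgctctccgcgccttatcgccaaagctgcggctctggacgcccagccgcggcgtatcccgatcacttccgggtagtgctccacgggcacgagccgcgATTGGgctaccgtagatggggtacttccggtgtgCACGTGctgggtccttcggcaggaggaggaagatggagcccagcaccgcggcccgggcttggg
SEC11C: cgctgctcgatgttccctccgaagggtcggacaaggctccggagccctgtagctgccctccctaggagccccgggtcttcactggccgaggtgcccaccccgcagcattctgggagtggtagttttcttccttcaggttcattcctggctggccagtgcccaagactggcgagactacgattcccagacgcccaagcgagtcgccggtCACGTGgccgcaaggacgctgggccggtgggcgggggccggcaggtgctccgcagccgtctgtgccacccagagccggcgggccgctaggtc
SEC62: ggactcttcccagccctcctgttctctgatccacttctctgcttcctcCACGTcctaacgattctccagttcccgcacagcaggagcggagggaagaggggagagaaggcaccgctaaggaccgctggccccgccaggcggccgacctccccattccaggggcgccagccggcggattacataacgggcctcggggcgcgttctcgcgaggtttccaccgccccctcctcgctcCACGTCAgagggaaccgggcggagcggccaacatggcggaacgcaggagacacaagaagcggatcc

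RefSeq windows were found for 29 of the 33 members (36 windows), all but RPN1, SRPRA, SPCS1 and STT3B. TGACGTG, the core of the unfolded protein response element, was in the windows of 5 members (17.2%), SEC61A1, SEC62, SRP19, SSR3 and SSR4, and in those of 3.34% of all listed genes with a window. ACGTG, which TGACGTG contains, was in 17 members (58.6%) and in 32.0% of listed genes. CCAAT was in 16 members (55.2%) and in 43.0% of listed genes. The full ER stress element (ERSE, which contains CCAAT) and its second form (ERSE-II) were in none of the 29, and in 0.138% and 0.129% of listed genes. The 1 narrow form of the NF-κB motif that was searched was in none, against 2.86%. At such low background shares, finding none among 29 members says little, for this form and for both ERSE forms. Other forms of the NF-κB motif were not searched, so whether the windows hold NF-κB sites was not tested. The ETS motif CCGGAAGT was in 4 members (13.8%) against 9.61%, and the NRF1 motif in 1 member, DAD1 (3.45%), against 2.66%. Both strands were searched for all 8 motifs. SSR3 held TGACGTG in 1 of its 3 windows, and SSR4 and SEC61A1 each in 1 of their 2. The SSR3 window with it (chr3:156554076-156554375) lies inside the annotated gene (chr3:156539553-156555149). In SEC61A1 it lay at positions -1 to 5 from the start. Of the 5 members with TGACGTG, 4 had log2 ratios with intervals above 0 (SSR4 0.93, SSR3 0.69, SEC61A1 0.33 and SRP19 0.29). Such intervals were found for 22 of all 33 members and for 2508 of 9192 measured genes. SEC62 had -0.14, or 0.03 with TMM scaling, which is described with the comparison of levels. SSR2, with the largest ratio, held only a CCAAT box, at position -44 from the start.

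The first comparison asked how the level of each group differed after cytokines. By summed level, the translocon group was higher, and the signal peptidase and oligosaccharyltransferase groups were higher by less. The SRP group differed little, in a direction that turned with the scaling. Levels are UMIs summed over all cells of a library per 1000000 UMIs of that library (CPM), and differences are log2 ratios of cytokine over vehicle with an exact 95% interval for counting error only. Summed over its 9 genes, the translocon was at 2279 CPM with vehicle and 3581 CPM with cytokines, a log2 ratio of 0.65 (0.64 to 0.66). Of this sum, SSR4 held 805 CPM and 1538 CPM, and SSR2 268 CPM and 544 CPM, so these TRAP genes weigh heavily in it. The median log2 ratio over genes was 0.44 for the translocon and 0.47 for the signal peptidase. It was 0.12 for the oligosaccharyltransferase and -0.02 for the SRP group. The signal peptidase was at 712 CPM and 963 CPM (0.44, 0.42 to 0.45). The oligosaccharyltransferase was at 2121 CPM and 2479 CPM (0.22, 0.21 to 0.23). The SRP and its receptor were at 1967 CPM and 1878 CPM (-0.07, -0.08 to -0.05), and this ratio was 0.11 with TMM scaling. Together the 33 genes took 0.708% of UMIs with vehicle and 0.890% with cytokines (0.33, 0.33 to 0.34). With 1 library per condition there was no replicate check and no test was possible.

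Read gene by gene, 24 of the 33 members had a log2 ratio above 0 and 9 had one below, against 33.6% of all 9192 measured genes above 0. Genes reaching 5 CPM in either library were taken as measured, and all 33 members did so. The median log2 ratio was 0.31 for the members and -0.20 for all measured genes. In all, 8 members (24.2%) were at least 1.5-fold higher with the interval on the same side, where 9.01% of all measured genes were. None was at least 1.5-fold lower, where 19.9% of all measured genes were. At 2-fold, 1 member was higher (SSR2, background 4.29%) and none was lower (background 7.48%). The direction of small ratios depended on the scaling. With TMM scaling, which moved every log2 ratio up by 0.18, 14 members were at least 1.5-fold higher (background 13.4%), none was lower (background 12.6%), and 30 lay above 0.

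**Figure D1:**
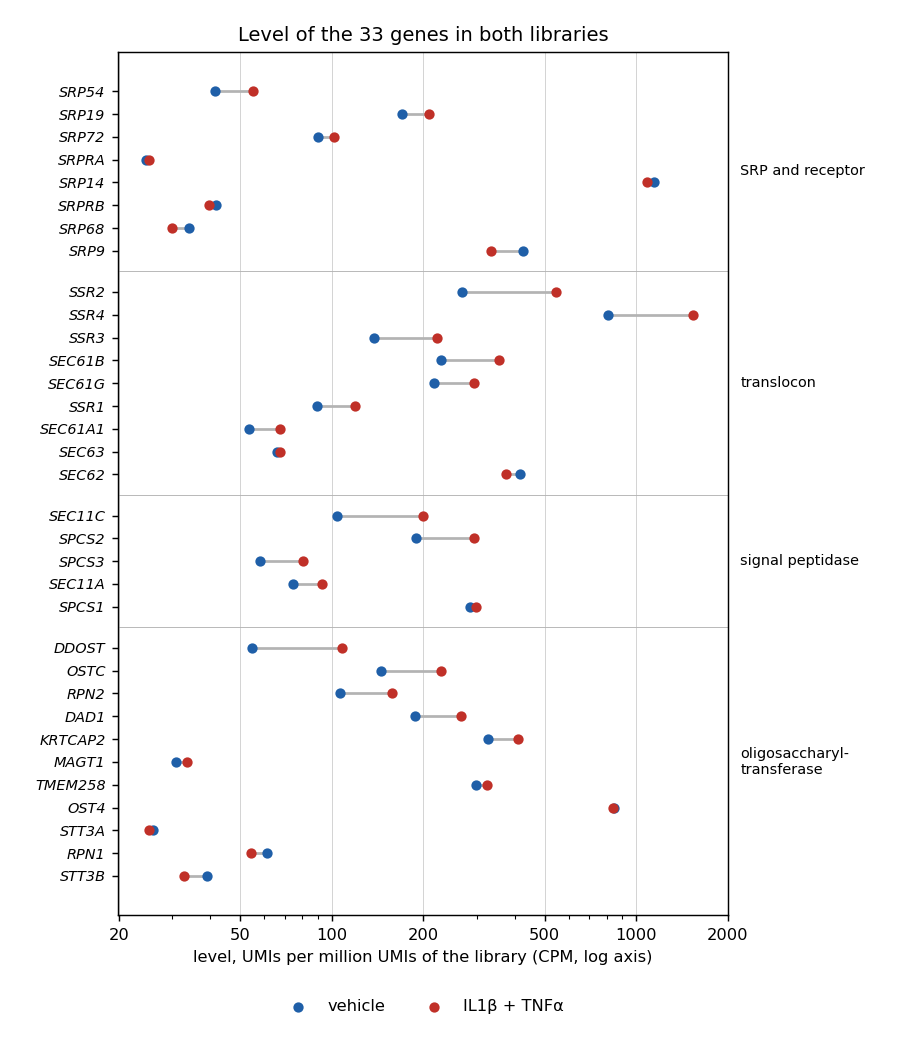
Level of each of the 33 genes in both libraries, in CPM on a log axis, with blue points for vehicle, red points for IL1β and TNFα, and a grey line joining both, ordered within each group by the log2 ratio. The longest lines belong to SSR2 (268 to 544 CPM), DDOST (54.9 to 108 CPM), SSR4 (805 to 1538 CPM) and SEC11C (104 to 199 CPM), while the SRP genes have short lines in both directions.

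In the translocon group, the TRAP subunits stood highest. SSR2, the beta subunit, was at 268 CPM with vehicle and 544 CPM with cytokines, a 2.03-fold higher level (log2 ratio 1.02, 0.99 to 1.05). SSR4, the delta subunit and the most abundant gene of the group, was at 805 CPM and 1538 CPM (0.93, 0.92 to 0.95). SSR3, the gamma subunit, was at 138 CPM and 222 CPM (0.69, 0.65 to 0.73). All 4 TRAP genes were thus higher, although SSR1, the alpha subunit, differed least of them, at 89.3 CPM and 119 CPM (0.42). SSR2 made up 75% (74.4 to 75.6) of the UMIs of SSR1 and SSR2 with vehicle and 82.0% (81.7 to 82.4) with cytokines.

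The 3 subunits of the SEC61 channel were also higher, in unequal measure. SEC61B, the beta subunit, was at 229 CPM and 354 CPM (0.63, 0.60 to 0.66), and SEC61G, the gamma subunit, at 216 CPM and 294 CPM (0.44). SEC61A1, which forms the pore, was at 53.7 CPM and 67.6 CPM (0.33). Of the channel, SEC61B was thus the only gene past 1.5-fold with library totals, while SEC61G also passed it with TMM scaling (0.62). SEC62 and SEC63, which serve substrates that enter after their synthesis, were not higher: SEC62 was at 414 CPM and 375 CPM (-0.14), and SEC63 at 66.3 CPM and 67.8 CPM (0.03, -0.03 to 0.09). The sign for SEC62 turned with TMM scaling, and that for SEC63 turned when ribosomal and mitochondrial genes were left out of the totals.

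In the signal peptidase all 5 genes had a ratio above 0, and its catalytic subunits differed from each other. SEC11C, a catalytic subunit, was at 104 CPM and 199 CPM (0.93, 0.89 to 0.97). SEC11A, its alternative, was at 74.8 CPM and 92.7 CPM (0.31, 0.25 to 0.37). SEC11C therefore took 58.3% (exact 95% interval 57.3 to 59.2) of the UMIs of both genes with vehicle and 68.2% (67.6 to 68.9) with cytokines. This difference was seen in G1 cells (58.3% and 69.0%) and was small in S cells (60.3% and 60.6%). In G2 or M cells the shares were 53.0% (50.7 to 55.2) and 59.5% (51.4 to 67.2). Among the accessory subunits, SPCS2 was at 189 CPM and 294 CPM (0.63, 0.60 to 0.67), SPCS3, which the active complex needs, at 58.3 CPM and 80.8 CPM (0.47), and SPCS1 at 285 CPM and 297 CPM (0.06).

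The oligosaccharyltransferase had genes on both sides of no difference, with 7 ratios above 0 and 4 below. DDOST, a non-catalytic core subunit, was at 54.9 CPM with vehicle and 108 CPM with cytokines, 1.97-fold higher (0.98, 0.92 to 1.04). OSTC, which links the STT3A complex to the translocon, was at 145 CPM and 228 CPM (0.65, 0.62 to 0.69). RPN2 was at 106 CPM and 158 CPM (0.57) and DAD1, another core subunit, at 188 CPM and 266 CPM (0.50). By contrast the catalytic subunits were not higher. STT3A, which acts on chains as they enter, was at 25.9 CPM and 25.05 CPM (-0.05, -0.15 to 0.05), and STT3B, which also modifies sites that were skipped, was at 38.9 CPM and 32.8 CPM (-0.25, -0.33 to -0.16). RPN1, the partner of RPN2 in the core, was at 61.4 CPM and 54.4 CPM (-0.17). With TMM scaling the ratios of STT3A and RPN1 were above 0 and that of STT3B stayed below.

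Of the small subunits, KRTCAP2 was at 326 CPM and 409 CPM (0.33), TMEM258 at 298 CPM and 323 CPM (0.11) and OST4 at 846 CPM and 841 CPM (-0.01). MAGT1, the oxidoreductase subunit of the STT3B complex, was at 30.7 CPM and 33.5 CPM (0.12). Its alternative TUSC3, which is not among the 33 members, was at 27.2 CPM and 16.3 CPM (-0.74). MAGT1 took 53.0% (51.4 to 54.7) of the UMIs of both with vehicle and 67.3% (65.7 to 68.8) with cytokines. Its share was larger with cytokines in G1 (52.1% and 67.1%) and S cells (53.1% and 67.8%). In G2 or M cells the shares were 54.7% (50.6 to 58.7) and 74.4% (57.9 to 87.0, from 39 UMIs), with overlapping intervals. A smaller shift was seen for the catalytic pair, where STT3A took 40.0% (38.4 to 41.5) and 43.3% (41.8 to 44.9) of the UMIs of STT3A and STT3B. DDOST took 47.2% and 66.6% of the UMIs of DDOST and RPN1. These shares compare UMIs of a gene pair within a library and so do not change with the scaling.

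With library totals the SRP and its receptor held no member past 1.5-fold, but SRP54 passed it with TMM scaling (log2 ratio 0.59). SRP14 and SRP9, which together bind the Alu end of the SRP RNA and delay elongation, were at 1140 CPM and 1085 CPM (-0.07) and at 425 CPM and 334 CPM (-0.35). SRP54, which binds the signal sequence, was at 41.3 CPM and 55.0 CPM (0.41), and SRP19, needed to assemble it on the RNA, at 170 CPM and 208 CPM (0.29). SRP72 was at 90.4 CPM and 102 CPM (0.17) and its partner SRP68 at 34.0 CPM and 29.8 CPM (-0.19). These 6 genes thus lay on both sides of no difference. The receptor subunits lay close to no difference, with SRPRA at 24.5 CPM and 25.2 CPM (0.04, -0.06 to 0.14) and SRPRB at 41.9 CPM and 39.4 CPM (-0.09). With TMM scaling the ratios of SRP14 and SRPRB turned above 0.

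Because the libraries differed in cell cycle phase, each ratio was also computed among cells of 1 phase. The higher translocon level was seen in all 3 phases and was largest in G1. The summed translocon log2 ratio was 0.66 in G1, 0.40 in S and 0.32 in G2 or M. The summed ratio of all members was 0.33, 0.18 and 0.14 in the same order. In G1, 10 members were at least 1.5-fold higher (background 9.39%) and none was lower (background 14.8%). In S, SSR4 was higher (0.70, background 6.54%) and SRP68 was lower (-0.85, background 10.9%), and in G2 or M only SSR2 was higher (0.64, background 6.74%) and none was lower (background 4.23%). The S and G2 or M groups held 324 and 40 cytokine cells, and the difference between phases was not tested.

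The members with the largest ratios were above 0 in each phase, though in G2 or M the interval of SEC11C reached 0. SSR2 had log2 ratios of 0.93 in G1, 0.53 in S and 0.64 in G2 or M. SEC11C had 1.03, 0.37 and 0.32, and DDOST had 0.91, 0.54 and 0.48. Across the members, 16 were above 0 in every phase (background 19.8%), and 5 (SRP9, SRP14, SRPRB, SEC62 and STT3B) were below 0 in every phase (background 37.1%). None was at least 1.5-fold higher in every phase (background 4.16%). SEC61A1 was higher in G1 (0.45, 0.35 to 0.55) and its interval spanned no difference in S (-0.13, -0.30 to 0.04). When the cytokine phases were weighted by the vehicle shares, the summed ratio of all members was 0.23 and 4 members were at least 1.5-fold higher (background 7.14%), SSR2, SSR4, SEC11C and DDOST.

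**Figure D2:**
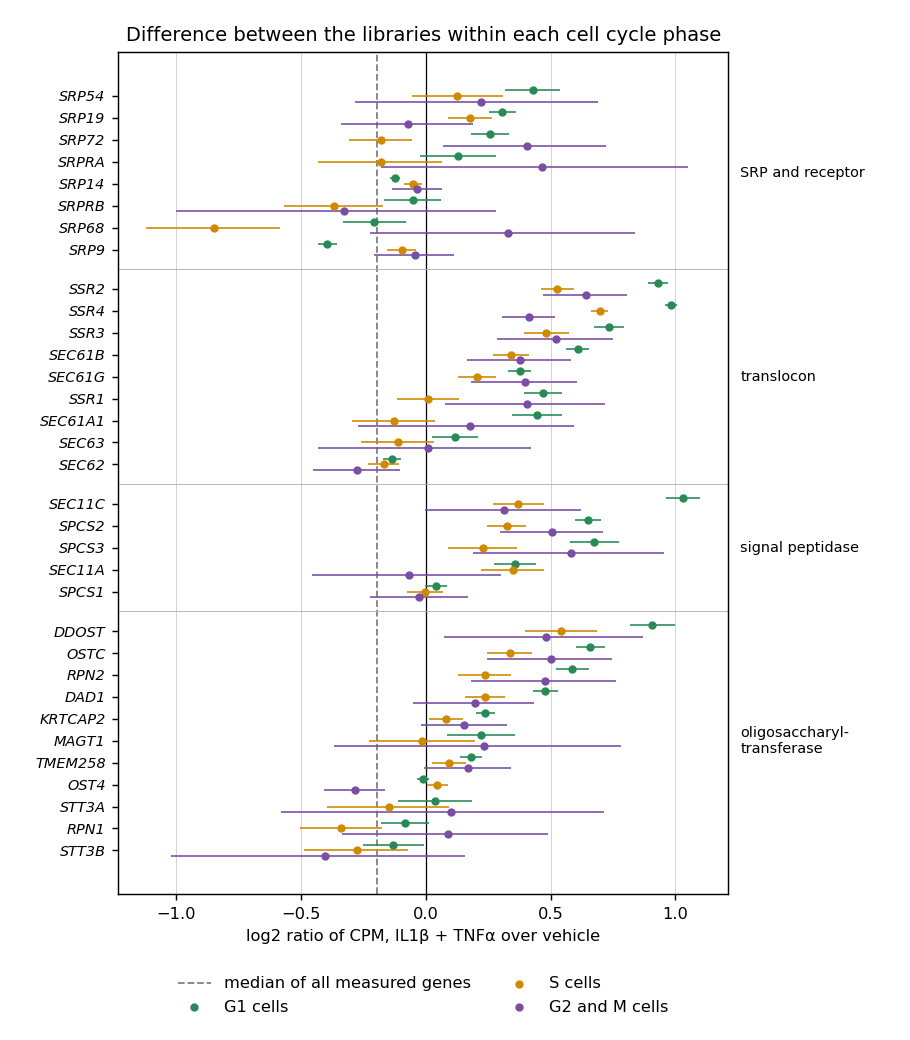
Log2 ratio of CPM (cytokine over vehicle) of each gene among G1, S and G2 or M cells, with points for the ratio, lines for the exact 95% counting interval, a solid line at 0 and a dashed line at the median of all measured genes in the whole libraries (-0.20). The 4 genes with the largest ratios lie right of 0 in each phase, and G2 or M intervals are wide because that phase held 40 cytokine cells.

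The authors' 6 clusters, which each contain cells of both libraries, gave the same comparison among more alike cells. They were made from these same cells, so differences between clusters are a description. All members together were higher with cytokines in each cluster, with log2 ratios of 0.28, 0.26, 0.20, 0.35, 0.21 and 0.24 in clusters 0 to 5. Cluster 3 had the highest summed level in both libraries (8045 CPM and 10264 CPM) and cluster 4 the lowest (6405 CPM and 7387 CPM). Of the members, 18 were above 0 in every cluster (background 16.5%) and 4 were below 0 in every cluster, SRP9, SRPRB, SEC62 and STT3B (background 36.6%).

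SSR4 and DDOST were at least 1.5-fold higher by the ratio in every cluster (background 4.08%). SSR4 ran from 664 to 1053 CPM over the vehicle clusters and from 1158 to 1848 CPM over the cytokine clusters. For SSR4, SSR3, SEC61B and SEC61G the lowest cytokine cluster lay above the highest vehicle cluster (4 members, background 5.77%), and for no member the reverse (background 9.77%). SSR3 ran from 117 to 160 CPM and from 178 to 256 CPM. DDOST and SEC11C overlapped, since their levels in vehicle cluster 3 (83.2 CPM and 138 CPM) passed those in cytokine cluster 4 (70.2 CPM and 129 CPM).

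**Figure D3:**
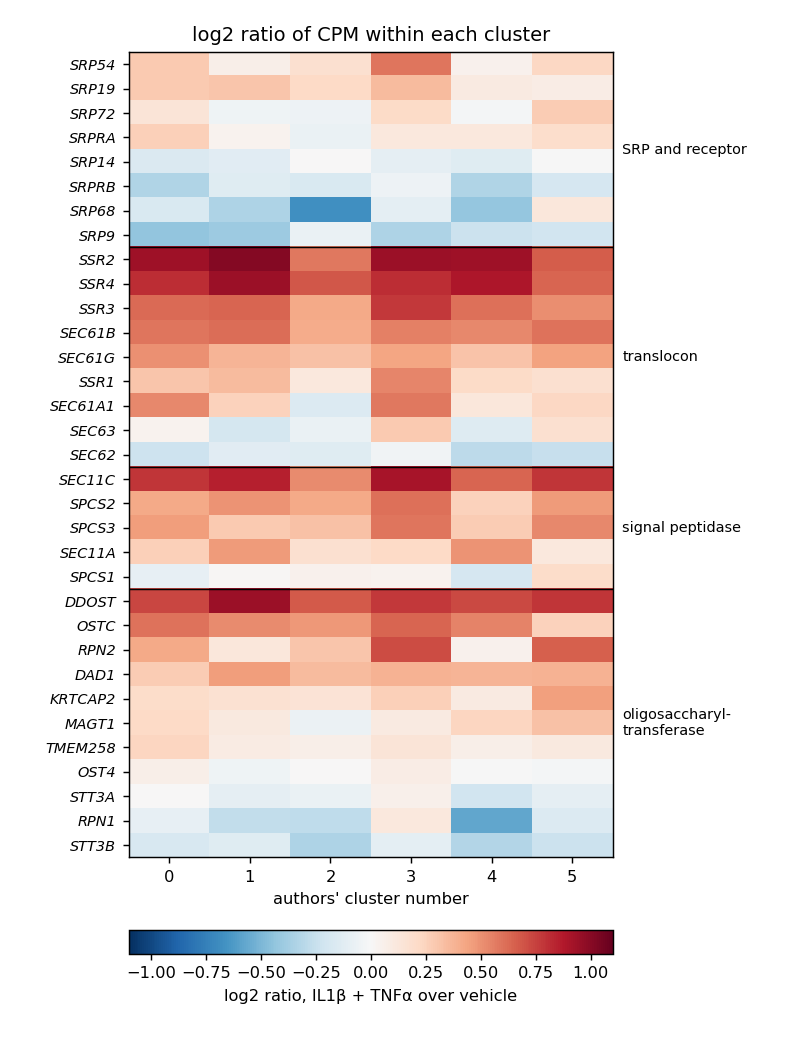
Log2 ratio of CPM (cytokine over vehicle) of each gene within each of the authors' 6 clusters, on a colour scale from blue (lower with cytokines) to red (higher). SSR2, SSR4, SEC11C and DDOST are red in each column, and SRP9, SRPRB, SEC62 and STT3B are blue in each.

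In single cells the summed translocon share, to which SSR4 gave the most UMIs, was higher in most cytokine cells, and the SRP share was not. To compare cells at equal depth, 15000 UMIs were drawn from every cell. This used 2586 vehicle and 3033 cytokine cells, and 236 and 130 shallower ones were not used. The median cell gave 0.220% of its UMIs to the translocon with vehicle and 0.347% with cytokines, and 93.6% of cytokine cells lay above the vehicle median. The medians for the signal peptidase were 0.0667% and 0.0933% (73.1% of cytokine cells above), for the oligosaccharyltransferase 0.213% and 0.240% (68.9%), and for the SRP and its receptor 0.193% and 0.187% (40.5%). For all members together the medians were 0.70% and 0.88%, unthinned 0.701% and 0.878%.

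**Figure D4:**
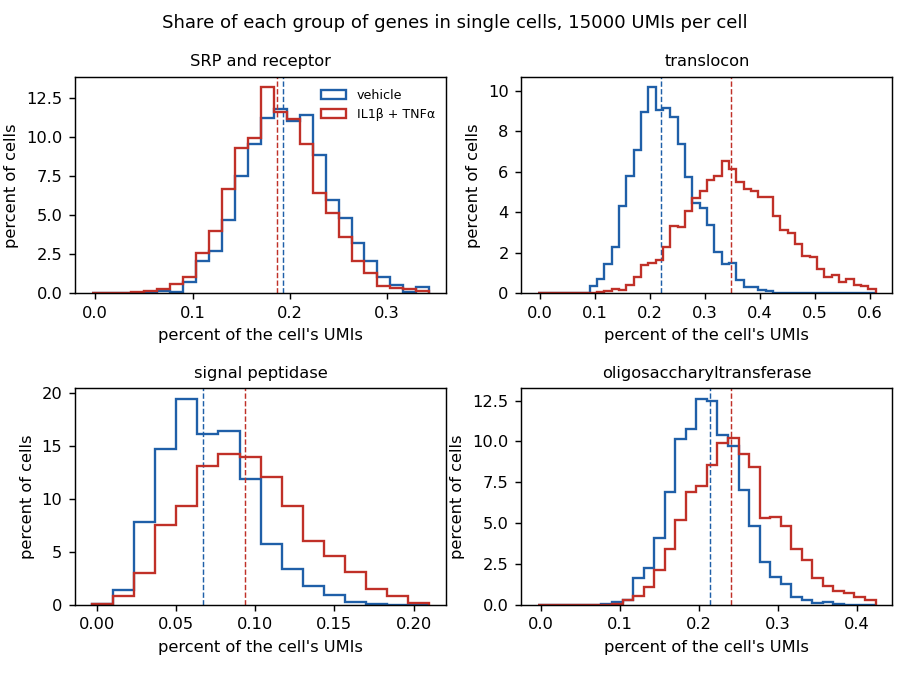
Distribution over cells of the percent of a cell's 15000 thinned UMIs given to each of the 4 groups, as the percent of cells in each bin, with blue for vehicle, red for IL1β and TNFα and dashed lines at the medians. The translocon medians are 0.220% and 0.347% and the SRP distributions overlap almost fully. The few highest cells lie beyond the axis.

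DDOST was seen in 54.2% of thinned vehicle cells and 75.2% of thinned cytokine cells, and SEC11C in 75.2% and 90.5%. STT3B was seen in 44.5% and 37.9%. There is no cell type in the cultures that lacks these genes, so the share that free RNA would give was not measured. The variance of the thinned counts over their mean was 1.11 with vehicle and 1.20 with cytokines for the median member. This ratio grows with the level, so it was set beside the 200 genes nearest in level. For RPN2 it was 1.19 with vehicle (median of near genes 1.12) and 1.68 with cytokines (1.20), and for SPCS2 1.45 (1.22) and 1.89 (1.35). With cytokines RPN2 and SPCS2 stood highest of the members among their near genes (percentiles 94.5 and 88), and TMEM258 lowest (3). No member lay above the 95th percentile of its near genes in either library.

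The related lists ranged from medians near that of the members to medians near that of all measured genes (-0.20), and the differences between lists were not tested. The glycan trimming and lectin folding cycle had a median log2 ratio of 0.32, beside 0.31 for the members, with 3 of 14 measured genes at least 1.5-fold higher (21.4%) and none lower, and 13 of 14 above the median of all genes. The third besides the highest pair was PDIA3, a disulfide isomerase of glycoproteins, named after its value was seen (0.90). The highest were LMAN1, a cargo receptor for glycoproteins leaving the ER, at 48.8 CPM and 94.7 CPM (0.96), and EDEM2, which starts mannose trimming of misfolded glycoproteins, at 11.6 CPM and 22.3 CPM (0.94). Its lowest were GANAB, the catalytic subunit of glucosidase II (-0.37), and UGGT1, the folding sensor (-0.08). The synthesis of the lipid-linked sugar had a median of 0.12, with 2 of 26 genes at least 1.5-fold higher and 20 above the median of all genes. Its highest were GMPPA (0.94) and ALG6, a glucosyltransferase (0.81, 4.03 CPM and 7.04 CPM), and DOLPP1, a dolichyl diphosphate phosphatase, was among its lowest (-0.49).

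The other 4 lists had medians between -0.24 and -0.11, close to the -0.20 of all measured genes. With TMM scaling the medians of the ER membrane protein complex (0.06) and of tail-anchor insertion (0.07) turned above 0. The ER membrane protein complex had a median of -0.11, with 2 of 10 genes at least 1.5-fold higher and 2 lower. EMC3, a core subunit of this insertase, was at 65.2 CPM and 139 CPM, 2.13-fold higher, and EMC2 at 17.8 CPM and 30.1 CPM (0.76), whereas MMGT1 was at 23.0 CPM and 13.7 CPM (-0.75) and EMC8 at 49.9 CPM and 33.1 CPM (-0.59). Tail-anchor insertion had a median of -0.11 with none of 6 genes higher and 2 lower, SGTA (-0.66) and UBL4A (-0.61), and its highest were CAMLG (0.27) and GET3 (0.24). Translocon accessory genes had a median of -0.18 with none of 9 higher and 2 lower, TRAM2 (-0.96, 7.94 CPM and 4.07 CPM) and TUSC3. TUSC3, the alternative to MAGT1, is an oligosaccharyltransferase subunit that had been placed in this list. The highest of the list were TRAM1 (0.22) and SEC61A2 (0.19). The GPI transamidase, which attaches lipid anchors, had a median of -0.24 with none of 5 past 1.5-fold, PIGK (-0.50) and PIGS (-0.43) being lowest and PIGU (0.27) and PIGT (-0.02) highest.

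**Figure D5:**
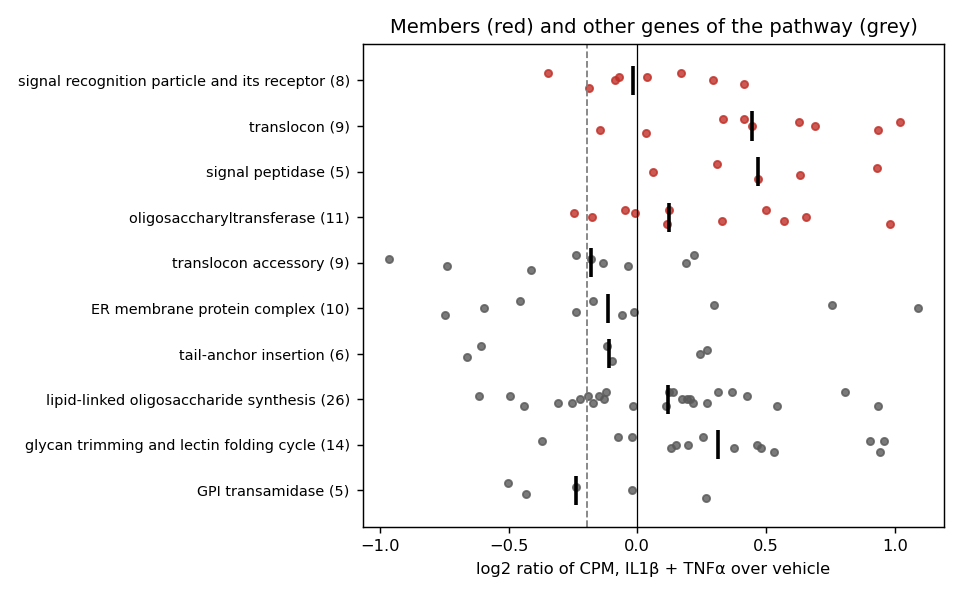
Log2 ratio of CPM (cytokine over vehicle) of the 33 members (red) and of measured genes of 6 related lists (grey), 1 point per gene, with a black bar at each list's median and a dashed line at the median of all measured genes (-0.20). The translocon (median 0.44) and signal peptidase (0.47) lie furthest right, the glycan trimming cycle has a median of 0.32, and 4 of the 6 grey lists have medians below 0, of which those of the ER membrane protein complex and tail-anchor insertion turn above 0 with TMM scaling.

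Some counts are less certain because of gene copies or overlapping genes. By GENCODE v44 (GRCh38), 12 members have annotated pseudogenes named after them, the most for OSTC (7), SRP14 (5) and SPCS2 (4), and reads from near-identical copies could be split or lost. Coding genes on the same strand overlap SRPRB (TF), SSR1 (CAGE1), STT3A (CHEK1), SRP19 and KRTCAP2. What this did to the counts was not measured. Separately, 5 members start within 1000 bases of a coding gene on the opposite strand, among them TMEM258 and FEN1, whose starts lie 109 bases apart. FEN1, a DNA replication nuclease, was at 45.0 CPM and 14.9 CPM (-1.59), while TMEM258 was at 298 CPM and 323 CPM. SEC61B shares its start region with ALG2, whose log2 ratio was 0.18 (-0.00 to 0.35).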

How the data were processed

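MDA-MB-453 cells with vehicle or with IL1β and TNFα were profiled as 1 library each. Raw UMI counts were produced by the authors with Cell Ranger 3.1.0 (GRCh38 reference) and deposited as whole numbers. Cells and genes had been filtered in Seurat 4.0.4. The deposited cell table gives depth, gene number, mitochondrial percent, cell cycle scores (not used here), phase and cluster. The making of the clusters is not given in the sources used here. Doublets were not called here. In all 5985 cells the summed counts were checked against the deposited cell table and were equal, and 8 barcodes occurred in both libraries.

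UMIs were summed per library and divided by the library total (CPM). The log2 ratio was given with an exact 95% conditional binomial interval, and shares with exact Clopper-Pearson intervals, all for counting error only. Genes reaching 5 CPM in either library were measured, and a gene was called at 1.5-fold or 2-fold with its interval on the same side. No test was made, because cells of 1 culture are not replicates. Scripts were tested on simulated data. For per-cell shares each cell was thinned to 15000 UMIs. Alternatives used edgeR 4.0.16 (TMM), DESeq2 1.42.0 (size factors), totals without ribosomal and mitochondrial genes, mean CPM per cell, cells under 10% mitochondrial UMIs, G1 cells alone, vehicle phase shares, measured limits of 1 and 20 CPM, and thinning to 7500 UMIs or none. Python 3.11.15, numpy 2.4.6, scipy 1.17.1, pandas 2.3.3, matplotlib 3.10.9 and R 4.3.3 were used. The members and lists were chosen with earlier results of these data known. Named genes were all 33 members and, of each related list, the 2 highest and 2 lowest measured ratios, except where an item is not reported here. The secreted and S100 lists were added after seeing the data.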

Additional observations from a re-analysis of the deposited data

Results flagged for a closer look

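A few members had counting intervals on opposite sides of no difference in different phases or clusters. These differences between phases or clusters were not tested, and the intervals cover counting error only. SRP72 had a log2 ratio of 0.26 in G1, -0.18 in S and 0.41 in G2 or M cells. OST4 had 0.047 in S and -0.29 in G2 or M cells, where 40 cytokine cells were measured. Among clusters, SEC63 had -0.19 in cluster 1 and 0.29 in cluster 3. SPCS1 had -0.088 in cluster 0, -0.18 in cluster 4 and 0.20 in cluster 5. OST4 had 0.061 in cluster 0, -0.045 in cluster 1 and 0.083 in cluster 3.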

How the results depend on the processing

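Each library is a single culture, so the spread between cultures is unknown and limits every ratio. No paired analysis was possible because each condition had 1 library and no test was made. The summed translocon, signal peptidase, oligosaccharyltransferase and whole-set ratios were above 0 under each alternative that recomputed them, while that of the SRP group changed sign with the scaling. The cause of these moves was not tested.

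With DESeq2 size factors the summed log2 ratios were 0.52 (all members), 0.13 (SRP), 0.84 (translocon), 0.63 (signal peptidase) and 0.42 (oligosaccharyltransferase), with 14 members at least 1.5-fold (13.9% of all measured genes) and 4 at least 2-fold higher (5.86%). With TMM they were 0.51, 0.11, 0.83, 0.61 and 0.40, with 14 (13.4%) and 4 members (5.72%). Without ribosomal and mitochondrial genes in the totals they were 0.28, -0.12, 0.60, 0.38 and 0.17, with 0 members at least 2-fold higher (3.98%). As a mean of CPM per cell, all members gave 0.31, the translocon 0.63, the signal peptidase 0.41 and the oligosaccharyltransferase 0.21, with 0 at 2-fold (4.17%). With vehicle phase shares these were 0.23, 0.48, 0.31 and 0.14, with 4 members at 1.5-fold (7.14%) and 0 at 2-fold (3.59%). In G1 cells alone the SRP gave -0.10, the translocon 0.66 and the signal peptidase 0.47. The sign of single members differed from the reported one for 6 (TMM), 7 (DESeq2), 2 (totals without ribosomal and mitochondrial genes), 1 (G1 alone) and 1 (phase shares) of 33. It differed for 0 with cells under 10% mitochondrial UMIs and 0 with the mean per cell. Measured limits of 1 and 20 CPM changed no count of members.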

Other observations

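Across cells the members' share of UMIs went with that of secreted proteins. The correlation between the members' share and the summed share of 19 listed genes for secreted proteins with a signal peptide (such as LCN2, SERPINA3 and TFF1) was 0.36 over 2586 vehicle cells and 0.45 over 3033 cytokine cells (Pearson), and within clusters it ran from 0.17 to 0.41 and from 0.30 to 0.43. As shares of UMIs that are neither ribosomal nor mitochondrial it was 0.26 and 0.35, and within clusters it ran from 0.12 to 0.31 and from 0.13 to 0.36. With S100A7, S100A8 and S100A9, which leave cells without a signal peptide, it was 0.04 and 0.03. The vehicle value of these says little, because almost no S100 UMIs were counted there. With cytokines the S100 correlation ran from -0.12 to 0.06 within clusters. As shares of UMIs that are neither ribosomal nor mitochondrial it was -0.02 with cytokines, and within clusters it ran from -0.21 to 0.05. The secreted list took 0.112% of UMIs with vehicle and 0.440% with cytokines, and the S100 list 0.000861% and 0.828%. Both lists were chosen after seeing the data, cells of a library share its depth and free RNA, and shares of a total are tied to each other. The members' share also went against that of ribosomal protein genes (-0.36 and -0.56) and of mitochondrially encoded genes (-0.30 and -0.40). With the UMIs of the cell before thinning it had a correlation of -0.03 with vehicle and 0.27 with cytokines.

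When cytokine cells were put in order of their secreted share and divided into 4 equal parts, the median share of the members was 0.753%, 0.860%, 0.927% and 0.987%, and that of the translocon 0.293%, 0.340%, 0.367% and 0.413%. The median secreted share was 0.173% in the lowest of these parts, and the mean over vehicle cells was 0.112%, which is another measure. The cytokine cells of these parts were not matched to vehicle cells. Between groups of members, the translocon and signal peptidase had a correlation of 0.38 with vehicle and 0.54 with cytokines. It was 0.21 and 0.50 for the translocon and oligosaccharyltransferase, and 0.20 and 0.47 for the signal peptidase and oligosaccharyltransferase. The SRP with the translocon had 0.27 and 0.24, with the signal peptidase 0.25 and 0.30, and with the oligosaccharyltransferase 0.17 and 0.24.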
